A study of Mus musculus with 6 samples.

Results

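Hypothalamic identity genes other than peptides were followed in the thalamus of irradiated mice. The genes were Nkx2-1, Otp, Sim1, Hmx3, Hmx2, Nr5a1, Six6, Six3, Irs4 and Baiap3, chosen by gene symbol. All 10 were found among the 21899 genes of the count table, and 9 of them passed edgeR's filter on low counts with 14956 genes in all. Hmx2 did not pass. RC mice (n = 3) and RN mice (n = 3) were male C57BL/6J mice of wild-type genotype, aged 8 to 10 weeks when bought. Both groups received 50 Gy of gamma rays to the left thalamus and, 2 weeks later, 2 µL of AAV9 into the thalamus. The RC virus held tdTomato, a red fluorescent protein, under the astrocyte promoter GFAP104, and the RN virus held mouse NeuroD1 (mND1) and tdTomato under that promoter. Tissue beneath the hippocampus was lifted out of coronal slices with tweezers 6 weeks after irradiation and sequenced in bulk, and no unirradiated mouse is part of the comparison.

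The hypothalamus lies beneath the thalamus and is made of small nuclei that control water balance, feeding, growth, reproduction and stress hormones. Its neurons are specified by homeodomain, basic helix-loop-helix and nuclear receptor transcription factors, several of which stay on in adult neurons. In adult brain these factors are largely absent from the relay neurons of the thalamus. In bulk tissue more cells of a type and more RNA per cell cannot be told apart.

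Library totals lay between 16561663 and 18657015 counted reads, and 3 counts, the limit that a count of 0 allows, corresponded to 0.160 to 0.179 CPM, which stands for counts relative to the TMM-scaled library size. Such floors cover counting error only. In each series of values below, replicates 1, 2 and 3 follow in order. Neurod1, the gene in the RN virus, gave 84, 91 and 90 reads in the RC mice against 1123, 1711 and 910 in the RN mice. All 17 thalamic marker genes were detected in all 6 libraries, with a summed level of 1460 to 2853 CPM in RC and 1106 to 2037 CPM in RN. The libraries differed in other regional transcripts. Growth hormone (Gh), a pituitary product, gave 1008, 1284 and 16 reads in the RC mice against 18453, 7461 and 27 in the RN mice. The choroid plexus marker Ttr gave 44222, 127609 and 4491 reads in the RC mice against 415, 1169 and 1642 in the RN mice.

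The hypothalamic genes were mostly more abundant in RN than in RC. For 7 of the 10, namely Nkx2-1, Otp, Hmx3, Nr5a1, Six6, Irs4 and Baiap3, every RN mouse lay above every RC mouse, against 8.18% of all tested genes in that direction. Sim1, Hmx2 and Six3 overlapped between the groups. The same 7 had an unadjusted p under 0.05 in edgeR's quasi-likelihood test, against 5.44% of all tested genes with that p and a higher level in RN. None of the 9 tested genes was called when a Benjamini-Hochberg adjusted p under 0.05 and at least a 2-fold change were both required, where edgeR called 0.0735% of all genes (11 genes, and 22 with the replicate number as a block). Their adjusted p ran from 0.150 to 0.790. DESeq2's Wald test, the tool of the study's methods, called 3 of them, Nkx2-1, Otp and Six6, and 1.2% of all genes. The paper reports more genes for this comparison at the same thresholds. The fitted log2 fold changes of the 9 had a median of 1.71, beside 0.00 over all tested genes. Hmx3, Nr5a1 and Six6 had under 10 counts in every RC mouse. They passed the filter, which the DESeq2 fit shared, only through the RN mice, where they were high. The median, the count of 7 and the DESeq2 call of Six6 are therefore descriptions of the genes that passed. Among genes with at least 10 counts in every mouse the median was 1.06 and 4 genes had an unadjusted p under 0.05. In the exact two-sided permutation test on log2 CPM, each of the 7 reached p = 0.1, the smallest that 3 against 3 mice allow.

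**Figure D1:**
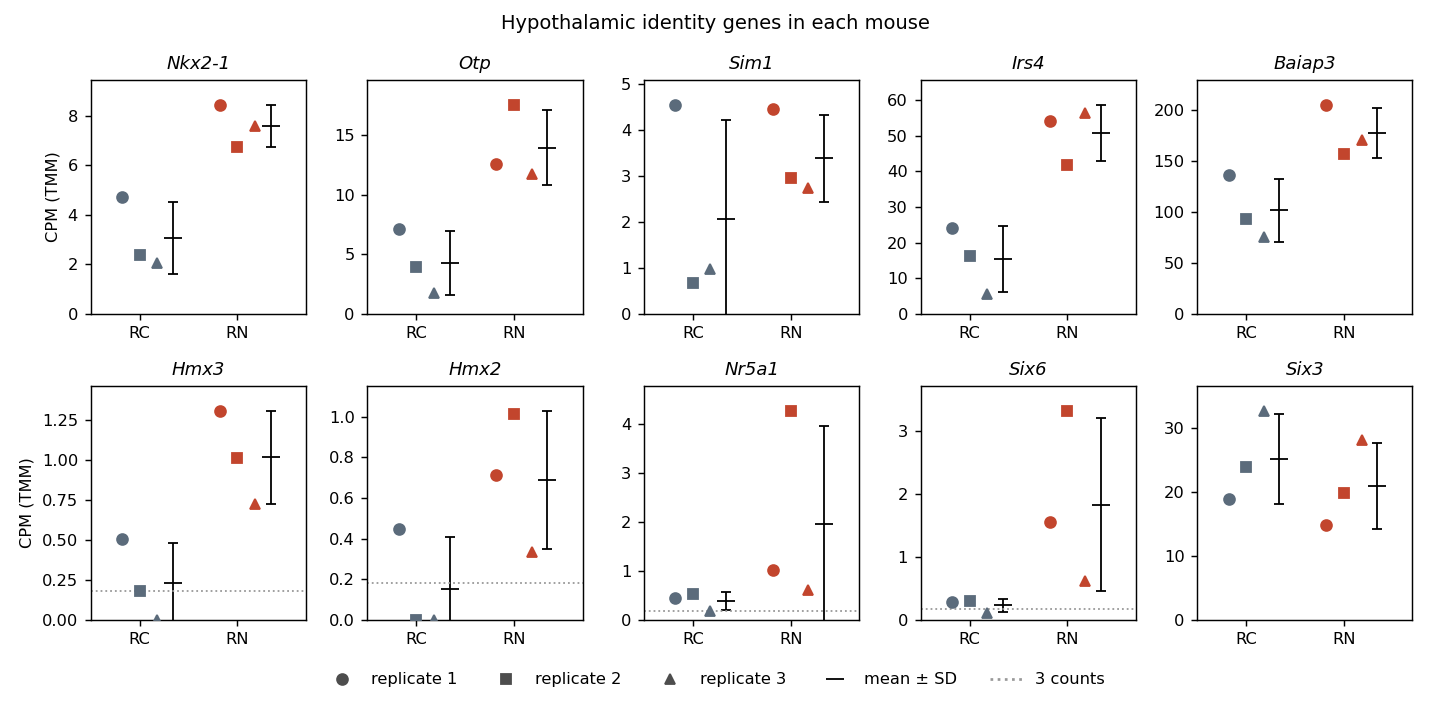
CPM of the 10 genes in each mouse (circles, squares and triangles for replicates 1, 2 and 3), with the mean and SD of each group (n = 3, bars cut at 0) and, for the 4 scarce genes, a dotted line at 3 counts. In 7 panels all RN points lie above all RC points, while in Sim1, Hmx2 and Six3 the groups overlap.

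Otp and Sim1 are transcription factors required for the neurosecretory neurons of the paraventricular and supraoptic nuclei, which make vasopressin, oxytocin, corticotropin-releasing hormone and thyrotropin-releasing hormone. Otp (ENSMUSG00000021685), a homeodomain factor, gave 127, 65 and 31 reads in the RC mice against 211, 328 and 210 in the RN mice. The RC mice thus spread widely and all lay under the RN mice. Its mean in CPM was 4.26 ± 2.69 for RC and 13.9 ± 3.14 for RN (SD, n = 3), log2 fold change 1.71 ± 0.42 (SE, edgeR adjusted p = 0.158 and 0.00202 from DESeq2). Without RC replicate 1, the highest RC mouse, the log2 fold change was 2.30.

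Sim1 (ENSMUSG00000019913), a basic helix-loop-helix factor that acts with ARNT2, gave 81, 11 and 17 reads in the RC mice against 75, 55 and 49 in the RN mice. RC replicate 1 stood at the level of the highest RN mouse, and the other 2 RC mice were below all RN mice. Its log2 fold change came to 0.71 ± 0.65 (SE, edgeR adjusted p = 0.764), and it was 2.04 without RC replicate 1 (edgeR adjusted p = 0.132). Arnt2 overlapped between the groups, with 4949, 5223 and 4082 reads in the RC mice against 5180, 5511 and 5369 in the RN mice. Among the peptides of these neurons, oxytocin (Oxt) gave 278, 112 and 161 reads in the RC mice against 462, 735 and 847 in the RN mice, log2 fold change 1.85 ± 0.32 (SE, edgeR adjusted p = 0.0813). Here RC replicate 1 stayed under every RN mouse, unlike for Sim1.

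RefSeq gave promoters for 9 of the 10 genes (250 bases before to 50 after a start, build GRCm38.p6, 10 promoters in all). NeuroD1 binds E-boxes, and its preferred hexamer CAGATG, searched on both strands, stood in 3 of these 10 promoters, those of Otp, Sim1 and an upstream start of Hmx2, beside 17.2% of 32851 promoters. The palindrome CAGCTG, another E-box, was in 0 of the 10 and in 16.3% of all promoters. The promoters of Otp and Sim1 are shown because they hold the hexamer and because both genes mark the same neurons while their values differed between the groups to unequal degrees. The Otp promoter lies at chr13:94875386-94875685 on the plus strand and the Sim1 promoter at chr10:50895401-50895700 on the plus strand, with the hexamer CAGATG or its reverse complement in capitals and other E-boxes left in lower case. The match begins 65 bases before the start in Otp, and 214 and 53 bases before it in Sim1.
Otp: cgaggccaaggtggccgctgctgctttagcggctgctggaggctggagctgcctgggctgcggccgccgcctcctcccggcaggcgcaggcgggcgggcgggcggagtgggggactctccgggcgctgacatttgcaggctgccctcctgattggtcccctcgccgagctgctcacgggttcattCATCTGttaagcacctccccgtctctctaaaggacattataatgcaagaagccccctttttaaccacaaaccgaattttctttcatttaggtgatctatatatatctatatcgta
Sim1: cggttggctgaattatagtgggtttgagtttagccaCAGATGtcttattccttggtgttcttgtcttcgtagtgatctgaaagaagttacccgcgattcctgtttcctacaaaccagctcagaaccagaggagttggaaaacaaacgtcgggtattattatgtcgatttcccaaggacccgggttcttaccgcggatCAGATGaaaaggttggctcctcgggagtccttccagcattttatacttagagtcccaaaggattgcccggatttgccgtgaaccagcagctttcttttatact
A match in these windows is a description of the letters only. The promoters of Nkx2-1, Irs4, Six6, Hmx3 and Baiap3, whose levels were higher in every RN mouse, held neither hexamer, nor did that of Six3.

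Nkx2-1 (ENSMUSG00000001496), a homeodomain factor, sets up the ventral hypothalamus and stays on in neurons of the arcuate, ventromedial and mammillary regions. It gave 84, 40 and 36 reads in the RC mice against 142, 126 and 136 in the RN mice. The 3 RN mice lay close together, and RC replicate 1 was the RC mouse nearest to them. The mean in CPM was 3.05 ± 1.44 for RC and 7.60 ± 0.855 for RN (SD, n = 3), log2 fold change 1.31 ± 0.32 (SE, edgeR adjusted p = 0.150 and 0.00831 from DESeq2). With each mouse left out in turn it stayed between 1.09 and 1.77.

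Nr5a1, Six6, Hmx3 and Hmx2 mark neurons of the tuberal hypothalamus and had the fewest counts of the genes. Nr5a1 (ENSMUSG00000026751), which encodes the nuclear receptor SF-1 of the ventromedial nucleus, gave 8, 9 and 3 reads in the RC mice against 17, 80 and 11 in the RN mice. RN replicate 2 held 74.1% of the RN counts, and RN replicate 3 was only 1.14 times the highest RC mouse in CPM. Its log2 fold change came to 2.34 ± 0.81 (SE, edgeR adjusted p = 0.295), and it fell to 1.06 without RN replicate 2. Six6 (ENSMUSG00000021099), a homeodomain factor of the ventral hypothalamus, gave 5, 5 and 2 reads in the RC mice against 26, 62 and 11 in the RN mice, again with RN replicate 2 the highest. Its log2 fold change came to 2.95 ± 0.72 (SE, edgeR adjusted p = 0.153 and 0.0120 from DESeq2) and 2.18 without that mouse.

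Nr5a1 and Six6 are also expressed in the pituitary, so the pituitary list stands beside them. The summed level of its 14 markers was 82.6, 91.0 and 2.35 CPM in RC against 1397, 657 and 2.80 CPM in RN. In RC replicate 3 and in RN replicate 3, 7 of the 14 were at 0 counts, among them the pituitary transcription factors Pou1f1 and Pitx1. Prolactin (Prl), a gene of that list, gave 380, 178 and 8 reads in the RC mice against 3884, 3116 and 6 in the RN mice. Cga, another gene of the list, had a log2 fold change of 4.34 with group alone (edgeR adjusted p = 0.279). With the replicate block its edgeR adjusted p was 0.00936. RN replicate 3, with pituitary markers near 0, had 11 counts each of Nr5a1 and Six6, above the 3 to 9 and 2 to 5 counts of the RC mice. With that mouse as the sole RN library, which is then assumed to vary like the RC mice, the log2 fold change was 0.65 for Nr5a1 and 1.37 for Six6 (adjusted p of 0.964 and 0.843 from edgeR). The part of pituitary RNA in the counts of both genes was not tested.

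Hmx3 and Hmx2 are neighbouring homeobox genes, and both act in the arcuate neurons that make growth hormone-releasing hormone. Hmx3 (ENSMUSG00000040148) gave 9, 3 and 0 reads in the RC mice against 22, 19 and 13 in the RN mice, with every RN mouse above every RC mouse. Its log2 fold change came to 2.11 ± 0.79 (SE, edgeR adjusted p = 0.336), and 3.42 without RC replicate 1. Hmx2 (ENSMUSG00000050100) gave 8, 0 and 0 reads in the RC mice against 12, 19 and 6 in the RN mice, so that RC replicate 1 lay above RN replicate 3 (exact permutation test, two-sided p = 0.2). Without a filter on low counts its log2 fold change was 2.13 (edgeR adjusted p = 0.566). Growth hormone-releasing hormone itself (Ghrh), singled out after its values were seen, gave 19, 7 and 11 reads in the RC mice against 27, 37 and 16 in the RN mice, and RC replicate 1 was again above RN replicate 3.

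Irs4 and Baiap3 are not transcription factors. Irs4 (ENSMUSG00000054667) encodes an insulin receptor substrate that is expressed in hypothalamic neurons. It gave 430, 271 and 98 reads in the RC mice against 911, 782 and 1011 in the RN mice. The RC mice were spread widely, the RN mice lay closer together, and the groups did not overlap. Irs4 overlaps the non-coding RNA Gm15295 in RefSeq. The mean in CPM was 15.3 ± 9.28 for RC and 50.8 ± 7.91 for RN (SD, n = 3), log2 fold change 1.73 ± 0.42 (SE, edgeR adjusted p = 0.150 and 0.0671 from DESeq2). With each mouse left out in turn it stayed between 1.33 and 2.22.
Baiap3 (ENSMUSG00000047507), a protein of the Munc13 family that works in the trafficking of dense-core vesicles, gave 2424, 1557 and 1321 reads in the RC mice against 3452, 2934 and 3059 in the RN mice. The groups did not overlap, yet RN replicate 2 was only 1.15 times RC replicate 1 in CPM. The mean in CPM was 101.6 ± 31.0 for RC and 177.8 ± 24.9 for RN (SD, n = 3), log2 fold change 0.81 ± 0.21 (SE, edgeR adjusted p = 0.171). DESeq2 gave an adjusted p of 0.00428 to this change, which lies below the fold threshold of 2. Baiap3 overlaps the gene Tsr3 in RefSeq and the kit does not mark strand. Tsr3 had 190 to 216 counts in RC and 201 to 215 in RN, log2 fold change 0.00 ± 0.14 (SE).

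**Figure D2:**
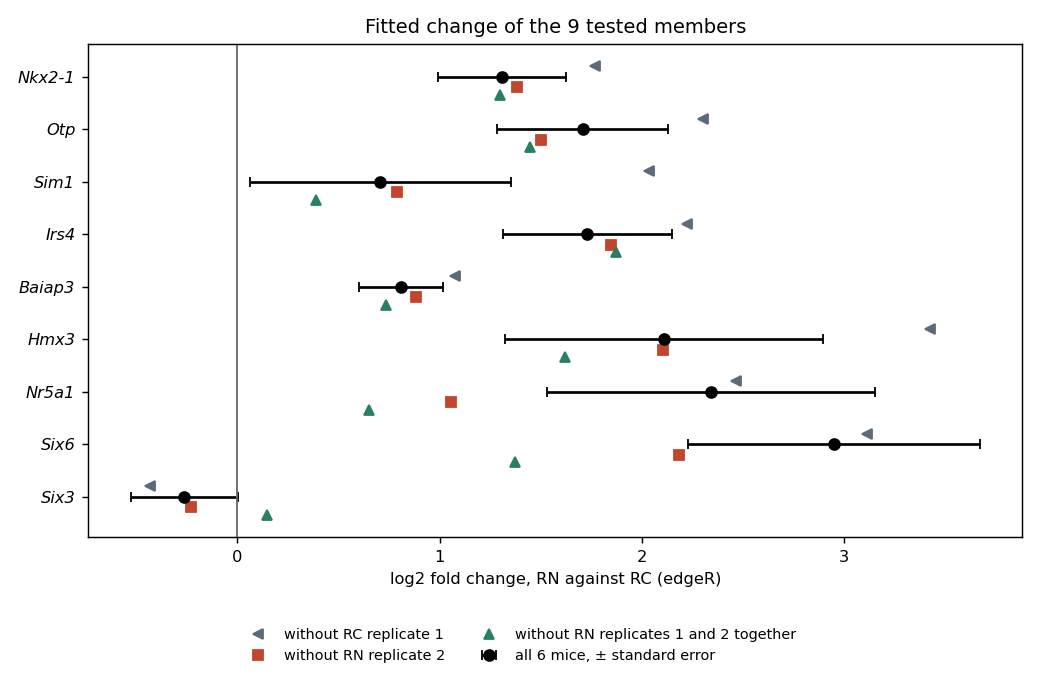
Log2 fold change in RN against RC from edgeR for the 9 tested genes, with all 6 mice (black, ± standard error), after leaving out RC replicate 1 or RN replicate 2, and with RN replicate 3 as the sole RN library. Nr5a1 and Six6 move most when RN mice are left out, Sim1 and Hmx3 when RC replicate 1 is left out, and Six3 lies near 0.

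Six3 was not higher in RN. It is a homeodomain factor of the early forebrain that stays on in parts of the hypothalamus and also in striatal neurons. Six3 (ENSMUSG00000038805) gave 335, 398 and 569 reads in the RC mice against 248, 371 and 502 in the RN mice. The groups overlapped, and within each group replicate 3 was the highest and replicate 1 the lowest. The mean in CPM was 25.1 ± 6.99 for RC and 20.9 ± 6.72 for RN (SD, n = 3), log2 fold change -0.26 ± 0.27 (SE, edgeR adjusted p = 0.790). With the replicate number as a block its unadjusted p was 0.0355 (edgeR adjusted p = 0.322), and with RN replicate 3 as the sole RN library its log2 fold change was 0.15, the opposite sign.
The striatal list varied in the same mice. The summed level of its 10 genes was 193, 493 and 640 CPM in RC against 159, 162 and 982 CPM in RN. Drd1, a dopamine receptor of striatal neurons and the gene of smallest p in that list, gave 70, 122 and 307 reads in the RC mice against 89, 91 and 752 in the RN mice. Both RC replicate 3 and RN replicate 3 were therefore the highest of their group in Six3 and in striatal genes, and the part of striatal RNA in the Six3 counts was not tested. Six3 also overlaps the antisense RNA Six3os1, whose reads cannot be told apart from those of Six3 in a library without strand.

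Levels of the genes were compared with each other only per length of exon (CPM per kb, with exon lengths of GENCODE M21). In RC the order was Baiap3, Six3, Irs4, Otp, Nkx2-1, Sim1, Hmx3, Nr5a1, Six6 and Hmx2, from 19.9 to 0.0465 CPM per kb. The ranges of neighbours in that order overlapped except between Baiap3 and Six3 and between Nkx2-1 and Sim1. In RN the order was Baiap3, Irs4, Otp, Six3, Nkx2-1, Hmx3, Nr5a1, Six6, Sim1 and Hmx2, from 34.8 to 0.214 CPM per kb. There the ranges were apart between Baiap3 and Irs4, Irs4 and Otp, Nkx2-1 and Hmx3, and Sim1 and Hmx2. Six3 was thus above Irs4 and Otp in RC, with ranges that overlapped those of Irs4, and below both in RN, with ranges that overlapped those of Otp.

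Most of the genes shared the RC mouse with the highest level, and they did not share such an RN mouse. Most also shared the lowest RC mouse, but these were not all the same genes. In RC, replicate 1 had the highest level of 7 of the 10 genes, the exceptions being Nr5a1, Six6 and Six3, and replicate 3 had the lowest level of 7 and shared a count of 0 with replicate 2 for Hmx2. In RN, replicate 1 and replicate 2 were each the highest for 4 genes and replicate 3 for 2, Irs4 and Six3. The mean of the 10 centred log2 CPM values was 0.00, -0.83 and -1.39 in RC against 0.78, 1.02 and 0.42 in RN. RC replicate 1 was thus nearer to RN replicate 3 than to RC replicate 2 or RC replicate 3. With RC replicate 1 left out, 8 of 10 genes had an unadjusted p under 0.05 and a higher level in RN, Sim1 and Hmx2 now among them and Nr5a1 no longer. Hmx2 then had 0 counts in both remaining RC mice and entered the test only through its RN counts, so its part in that 8 was set by the filter. Hmx3 and Six6, also in that 8, had under 10 counts in every RC mouse and likewise passed the filter only through the RN mice. With RN replicate 2 left out, 5 of 9 had it, and with RN replicate 3 as the sole RN library 3 of 9, namely Nkx2-1, Irs4 and Baiap3. None was called in any of these fits.

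**Figure D3:**
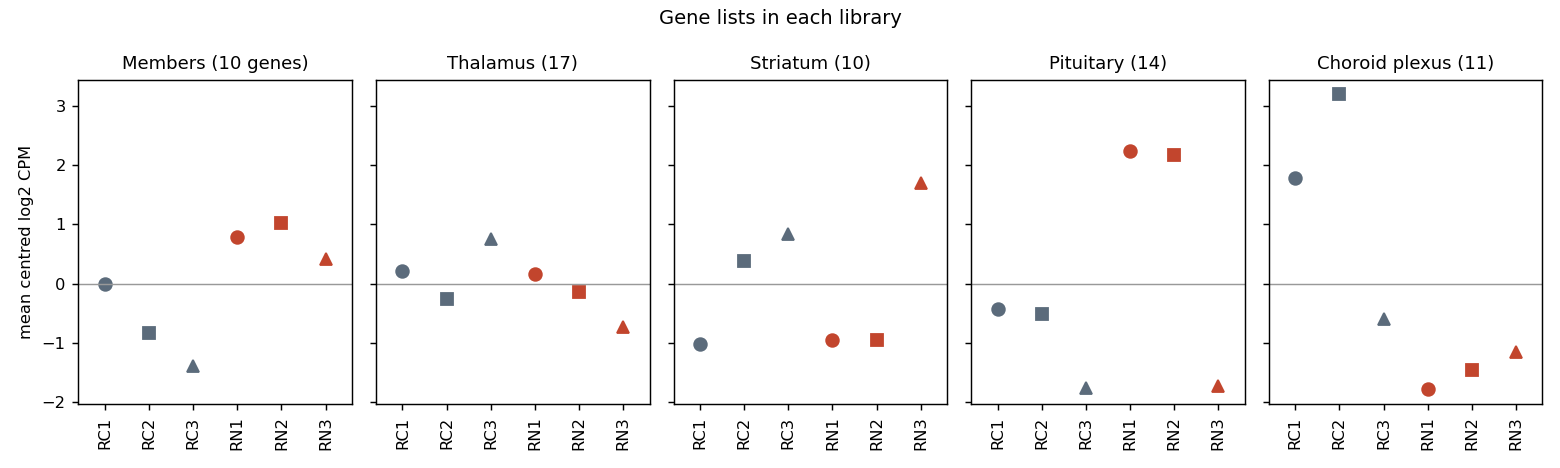
Mean centred log2 CPM of the 10 hypothalamic genes and of 4 lists of regional markers in each library (each gene centred over the 6 libraries). The hypothalamic genes lie from 0.42 to 1.02 in RN and from -1.39 to 0.00 in RC, while pituitary genes are highest in RN replicates 1 and 2, lowest in replicate 3 of each group, and striatal genes are highest in replicate 3 of each group.

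Thalamic markers were mostly lower in RN. Of the 17 tested, 1 was higher in RN and 3 had a lower level in RN with an unadjusted p under 0.05 in edgeR, namely Tnnt1, Rgs16 and Ramp3, and none was called (1 by DESeq2). Over all 14956 tested genes, 947 had such a p and a lower level in RN. Their median log2 fold change was -0.53, which became -0.16 when RC replicate 3 was left out, -0.28 when RN replicate 3 was, and 0.06, the opposite sign, when both were. Tnnt1, a troponin gene used as a thalamic marker, gave 681, 771 and 1103 reads in the RC mice against 531, 424 and 234 in the RN mice, log2 fold change -1.13 ± 0.31 (SE, edgeR adjusted p = 0.189). The count of 3 ran from 1 without RN replicate 3 to 10 without RC replicate 2, and was 2 without RC replicate 3. RC replicate 3 had the highest summed thalamic level of all 6 mice and the lowest hypothalamic one. General neuronal genes had a summed level of 3856 to 4656 CPM in RC and 4320 to 4666 CPM in RN over 7 genes and a median log2 fold change of 0.12. The choroid plexus list of 11 genes lay at 653 to 10888 CPM in RC and 341 to 392 CPM in RN, and all 11 had an unadjusted p under 0.05, lower in RN (0 called by edgeR, 10 by DESeq2). The part of tissue boundaries in these differences was not tested.

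Other transcription factors of hypothalamic neurons had mostly higher levels in RN. Of 20, 17 were tested and 15 of these were higher in RN, 3 with an unadjusted p under 0.05, none called by edgeR and 1 by DESeq2, with a median log2 fold change of 0.39. Over all tested genes, 5.44% had such a p and a higher level in RN, and DESeq2 called 1.2%. The 3 factors with such a p were Fezf1, Prdm13 and Onecut3. Prdm13 gave 0, 7 and 0 reads in the RC mice against 10, 20 and 17 in the RN mice. It passed the filter only through the RN mice, so its part in these counts and in the median was favoured by the filter. Fezf1, a zinc finger factor that works in the ventromedial nucleus beside Nr5a1, gave 22, 38 and 6 reads in the RC mice against 91, 143 and 76 in the RN mice, log2 fold change 2.17 ± 0.54 (SE, edgeR adjusted p = 0.158 and 0.00322 from DESeq2). Its 3 RN mice all lay above its RC mice, and RN replicate 2 was the highest. The count of such factors was 6 with the replicate block, 4 when RC replicate 1 was left out, 1 when RN replicate 3 was, and 0 with RN replicate 3 as the sole RN library. Bsx, a homeodomain factor of arcuate neurons singled out after its values were seen, gave 34, 1 and 0 reads in the RC mice against 46, 58 and 14 in the RN mice, which is again a high RC replicate 1. In the fit without that mouse, Bsx and Prdm13 both passed the filter only through their RN counts.

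Receptors, enzymes and other genes of hypothalamic neurons followed the same direction. All 24 were tested, 20 were higher in RN, 12 with an unadjusted p under 0.05, none called by edgeR and 7 by DESeq2, with a median log2 fold change of 0.51. The shares over all tested genes were 5.44% with such a p and a higher level in RN and 1.2% called by DESeq2. Gabre, the epsilon subunit of the GABA-A receptor, gave 119, 52 and 57 reads in the RC mice against 214, 299 and 292 in the RN mice, log2 fold change 1.78 ± 0.30 (SE, edgeR adjusted p = 0.0743). Peg10, an imprinted gene, gave 1663, 1045 and 1050 reads in the RC mice against 2899, 2343 and 4144 in the RN mice, log2 fold change 1.29 ± 0.24 (SE, edgeR adjusted p = 0.0986). Magel2, an imprinted gene of the Prader-Willi region, gave 214, 132 and 132 reads in the RC mice against 364, 322 and 345 in the RN mice, log2 fold change 1.08 ± 0.20 (SE, edgeR adjusted p = 0.0986). In each of these 3 genes RC replicate 1 was the highest RC mouse. The count of 12 stayed between 11 and 12 with any mouse left out.

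Hypothalamic neuropeptides had 17 of 22 genes tested, 15 higher in RN, 8 with an unadjusted p under 0.05, and a median log2 fold change of 1.08. Among all tested genes 5.44% had such a p and a higher level in RN, while edgeR called 0.0735% and DESeq2 1.2%. Gal, the precursor of galanin, gave 106, 93 and 57 reads in the RC mice against 525, 1550 and 1341 in the RN mice, log2 fold change 3.68 ± 0.40 (SE, edgeR adjusted p = 0.0365). It was the 1 peptide gene called by edgeR, a call that was lost with the replicate block (edgeR adjusted p = 0.0525), and DESeq2 called 4. The count of 8 was 12 with the replicate block and 14 without RC replicate 1. Without that mouse Agrp, Gnrh1 and Nms, untested in the main fit, were tested too, so the 14 are not out of the same 17. Gnrh1, Nms and Npvf then had at most 4 reads in any RC mouse and passed the filter only through the RN mice. Hcrt, the orexin precursor of lateral hypothalamic neurons, singled out after its values were seen, gave 681, 229 and 6 reads in the RC mice against 694, 754 and 513 in the RN mice. RC replicate 1 was within the RN range and RC replicate 3 close to the floor, an order of the RC mice that Otp, Irs4 and Nkx2-1 shared. Pomc, which is made in arcuate neurons and in the pituitary and was singled out likewise, gave 75, 81 and 26 reads in the RC mice against 731, 786 and 27 in the RN mice, with RN replicate 3 at the level of RC replicate 3. The tanycyte gene Gpr50 was the other gene called among these lists, with 24, 26 and 17 reads in the RC mice against 117, 263 and 139 in the RN mice, log2 fold change 2.89 ± 0.34 (SE, edgeR adjusted p = 0.0419). The tanycyte list as a whole did not share its direction. Of the 8 tested tanycyte genes 4 were higher in RN, and their median log2 fold change was -0.105.

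**Figure D4:**
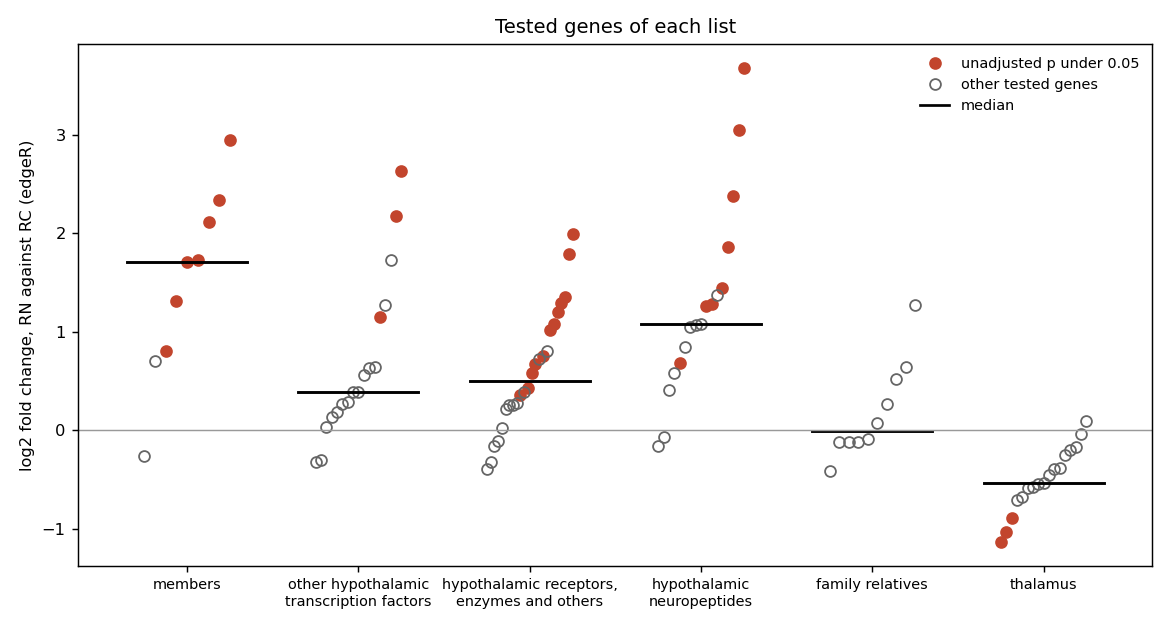
Log2 fold change in RN against RC (edgeR) of each tested gene of 6 lists, filled where the unadjusted p was under 0.05, with the median as a line. The medians are 1.71 for the 9 tested genes of the set, 0.39, 0.51 and 1.08 for the other 3 hypothalamic lists, 0.00 for family relatives and -0.53 for thalamic markers.

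Relatives of the 10 genes were set beside them. Of 17 such genes, 10 were tested, 5 were higher in RN, none had an unadjusted p under 0.05, and the median of their log2 fold changes was 0.00. Nkx2-2, Nkx2-4 and Sim2 (log2 fold change 0.64) are among those 5 and also stand in the list of other hypothalamic transcription factors. When RC replicate 1 was left out, 1 gene had such a p. Nkx2-2 and Nkx2-4, relatives of Nkx2-1, had log2 fold changes of 0.27 (standard error 0.16) and 1.27 (standard error 0.78), both with overlapping groups. Irs2, the relative of Irs4 that is expressed widely in brain, had 1736 to 1818 counts in RC and 1783 to 2142 in RN. Nkx2-4, which is itself a hypothalamic factor, gave 19, 4 and 2 reads in the RC mice against 23, 31 and 8 in the RN mice, with RC replicate 1 above RN replicate 3.

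The genes whose log2 CPM over the 6 libraries was most like the mean of the 10 were Tmpo, Resp18, Pam, Adamtsl3 and Zbtb21, with Pearson's r from 0.985 to 0.992 among 14318 genes of at least 1 CPM on average. These values share the libraries and the difference between the groups. Tmpo, the most alike, had a log2 fold change of 0.17 (edgeR adjusted p = 0.496). Adamtsl3 and Zbtb21 had log2 fold changes of 0.69 and 0.34 (edgeR adjusted p of 0.334 for each). Resp18, a protein of secretory granules, gave 3489, 2578 and 2444 reads in the RC mice against 4248, 4575 and 4075 in the RN mice, a log2 fold change of 0.57 (edgeR adjusted p = 0.135). Pam, the enzyme that amidates neuropeptides, gave 4202, 2905 and 2776 reads in the RC mice against 4526, 5114 and 4427 in the RN mice, a log2 fold change of 0.48 (edgeR adjusted p = 0.228). Both show RC replicate 1 nearest to the RN mice.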

How the data were processed

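Bulk thalamic RNA was measured in 6 mice, 3 RC and 3 RN. The table deposited by the authors holds whole-number counts, not normalized, 1 column per mouse. The submitters' processing notes name fastp 0.18.0, FastQC, HISAT2, RSEM 1.2.19 and the build GRCm39, without their roles. The counts may be rounded estimates, and the annotation and use of strand are not given in the sources used here. The NEBNext Ultra RNA kit does not mark strand. Replicate mice are separate animals, grouped by the labels' RC and RN descriptions.

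Counts were tested with edgeR 4.0.16 in R 4.3.3 (filterByExpr with a minimum count of 10, TMM, quasi-likelihood test on group, Benjamini-Hochberg adjustment over 14956 genes). Calls required both an adjusted p under 0.05 and at least a 2-fold change. DESeq2 1.42.0, no filter, 10 counts in every mouse, DESeq2's size factors, a prior count of 2 in place of 0.125, the replicate block and each mouse left out were alternatives. After the data were seen, 2 fits were added: without RN replicates 1 and 2, and without replicate 3 of both groups. Standard errors are the log2 fold change over the root of the F statistic. Log2 CPM used a prior count of 2. The fits were tested on simulated data. Exon lengths per kb came from GENCODE M21, and this measure was added after the data were seen.

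Replicate numbers are shared between RC and RN. Mice of the same number deviated together from their group means, with correlations across genes of 0.173, 0.120 and 0.209. Of the pairs of unlike number, RC replicate 1 with RN replicate 2 gave 0.156, RC replicate 2 with RN replicate 3 0.060 and the others from -0.285 to 0.00773. Every same-numbered pair exceeded 0.1, but so did RC replicate 1 with RN replicate 2. These values therefore do not establish that the numbers pair the mice, and the labels give no pairing. The main fits use group alone, with the block as an alternative. The block is given where it ends a call or moves a count by over 1.5 times. Calls that it gains are given as a total over all genes. In the other lists, genes lower in RN were not counted with the block.

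The genes, lists, rule for named genes and tests were chosen with earlier results of these data known. Named genes are the 10 members, up to 3 genes of smallest p in each list, the 5 genes most alike in pattern, Neurod1, Ttr, Gh and Prl, and others are named as later choices or as partners, relatives or overlapping genes of a member.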

Additional observations from a re-analysis of the deposited data

How the results depend on the processing

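No member was called by edgeR under any of its alternatives, while DESeq2's Wald test called 3 members and 179 genes in all. That total is lower than the paper's for this comparison, and the reason was not tested. Over all genes edgeR called 43 without a filter on low counts, 22 with the replicate number as a block, 5 without RN replicates 1 and 2 together and 4 without replicate 3 of both groups. With each mouse left out in turn the count ran from 3 (without RN replicate 2) to 30 (without RN replicate 1), and was 4 without RC replicate 1 or RC replicate 2, 23 without RC replicate 3 and 7 without RN replicate 3. The cause of these shifts was not tested.

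The count of members with an unadjusted p under 0.05 was 7, from 5 to 8 with a mouse left out, and 3 without RN replicates 1 and 2 together. It was 4, and the median log2 fold change 1.06, where only genes of at least 10 counts in every mouse were kept, which removes the scarce members. The median was 1.84 with the replicate block and from 1.34 to 2.26 with a mouse left out, highest without RC replicate 1. With the block 8 members passed an unadjusted p of 0.05, Six3 with a lower level in RN, and no member's call changed. The log2 fold change of Six3 reversed to 0.15 without RN replicates 1 and 2 together. The other members kept their direction in all fits that tested them. Counts under 10 in every RC library limit Hmx2, Hmx3, Nr5a1 and Six6.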

Other observations

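Other neighbours of the thalamus gave mixed values. Of 8 tested prethalamic genes, Dlx1, a homeodomain factor of inhibitory neurons, gave 202, 241 and 127 reads in the RC mice against 383, 296 and 572 in the RN mice (edgeR adjusted p = 0.203), while Pax6 had a log2 fold change of -0.47. The 6 habenular genes were all higher in RN, none with an unadjusted p under 0.05 in edgeR (0 called by DESeq2), and with the replicate block 4 of the 6 had such a p. Of 6 tested cortical and hippocampal genes 1 had such a p, Fibcd1, higher in RN. Of the tanycyte list 8 of 10 genes were tested and 4 were higher, Gpr50 alone with an unadjusted p under 0.05, and 2 genes with the replicate block.

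The 11 midbrain genes had a summed level of 49.1, 27.7 and 16.7 CPM for RC against 34.3, 38.8 and 16.4 CPM for RN, lowest in replicate 3 of each group, and none had an unadjusted p under 0.05 in edgeR (0 called by DESeq2). Slc6a3, the dopamine transporter, a gene of the receptor and enzyme list named after its values were seen, gave 3411, 2446 and 35 reads in the RC mice against 1044, 2387 and 1483 in the RN mice. RC replicate 3 was thus lowest in Slc6a3, in Hcrt and in Irs4 and highest in thalamic markers.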
